A study of Homo sapiens with 8 samples.

Results

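The AP-1 transcription factors described here are 10 genes, FOS, FOSB, FOSL1, FOSL2, JUN, JUNB, JUND, ATF3, BATF and BATF3. They are listed by name and were matched by symbol to gene identifiers. All 10 matched 1 identifier each, among 63677 identifiers in the count tables.

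AP-1 is a family of DNA-binding dimers held together by leucine zippers. The Jun proteins can pair with each other or with Fos proteins, whereas Fos proteins need a partner from another family, and ATF3, BATF and BATF3 are smaller relatives that pair mainly with Jun proteins. The dimers bind short sites in promoters and enhancers, are switched on within minutes by growth factor and antigen receptor signals through MAP kinases, and act in T cells beside NFAT and IRF proteins in activation and differentiation.

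The study treated DND-41 and MOLT-4, established human lines of T-cell acute lymphoblastic leukaemia, for 8 h with ACBI-1 at 100 nM or with DMSO, its solvent. ACBI-1 is a bifunctional degrader that brings the VHL ubiquitin ligase to SMARCA2 and SMARCA4, the ATPases of the BAF chromatin remodelling complex, and to PBRM1, a subunit of a related complex. Total RNA was read by strand-specific paired-end sequencing in 8 libraries, 2 for each of 4 groups: DND-41 with DMSO, DND-41 with ACBI-1, MOLT-4 with DMSO and MOLT-4 with ACBI-1. The cells grew in RPMI medium with serum. Because the labels do not state whether the 2 libraries of a group came from separate cultures, every p-value below covers the spread between libraries only, which may be technical.

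Library totals lay between 19860759 and 20239888 counts, and 3 counts corresponded to 0.137 to 0.165 CPM (read counts relative to library size, with sizes scaled by TMM factors). ACBI-1 removes proteins, so the RNA of its targets does not check the treatment labels. The 9 T-lineage markers summed to between 2559 and 5237 CPM in every library, with PTCRA at 0 counts in both DND-41 ACBI-1 libraries. Myeloid markers summed to at most 0.794 CPM and erythroid markers to at most 0.0550 CPM. The 6 B-lineage markers summed to 1569 and 1587 CPM in DND-41 with DMSO. CD79A alone had a mean of 1576 CPM there, while MS4A1, PAX5 and CD22 had 0 counts. Both MOLT-4 replicate 2 libraries stood apart in 6 stromal or epithelial markers. These markers summed to 73.5 CPM in MOLT-4 DMSO replicate 2 and 15.4 CPM in MOLT-4 ACBI-1 replicate 2, against 3.99 and 0.687 CPM in the replicate 1 libraries and at most 0.190 CPM in DND-41. EPCAM was at 0 in all of them and COL1A1 reached 55.4 CPM, and the results for MOLT-4 are therefore also given without both replicate 2 libraries. That leaves 1 library in each MOLT-4 group. The spread in those fits came from DND-41, so their calls do not measure spread within MOLT-4. In RNA from whole cultures, fewer cells that carry a transcript and less of it per cell cannot be told apart.

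After ACBI-1, more AP-1 genes fell than rose in both lines. In DND-41, JUN, JUND, FOSL1, BATF and BATF3 fell, which is 5 of the 10 members tested (edgeR quasi-likelihood test, Benjamini-Hochberg adjusted p under 0.05), and no member rose. Of all 14008 genes tested in DND-41, 43.2% changed, 23.2% lower and 20% higher. By an unadjusted p under 0.05 the number of members that rose was also 0, and DESeq2 called 0 as well. In MOLT-4, 7 of the 9 members tested fell, namely JUN, JUNB, JUND, FOS, ATF3, BATF and BATF3, and FOSB alone rose, against 24.4% lower and 20.7% higher, or 45.1% in all, of 14239 genes. FOSL1 had too few counts in MOLT-4 to be tested. The median log2 fold change of the members was −0.50 in DND-41 and −0.60 in MOLT-4, beside 0.01 and 0.00 for all genes tested. JUN, JUND, BATF and BATF3 fell in both lines, 4 of the 9 members tested in both, against 15.6% of 12859 genes. Without both MOLT-4 replicate 2 libraries 6 of the 9 members fell in MOLT-4, against 15.6% of genes lower and 9.55% higher in that fit, and FOS and FOSB were no longer called. DESeq2 with all libraries called 7 members lower in MOLT-4, against 17.7% of genes, and did not call FOSB. The authors' deposited DESeq2 comparison of MOLT-4 had 5 of 10 members under an adjusted p of 0.05. FOS (0.0894), ATF3 (0.0731) and FOSB (0.157) were not among them. The share of all genes under that threshold in the deposited comparison was not counted.

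**Figure D1:**
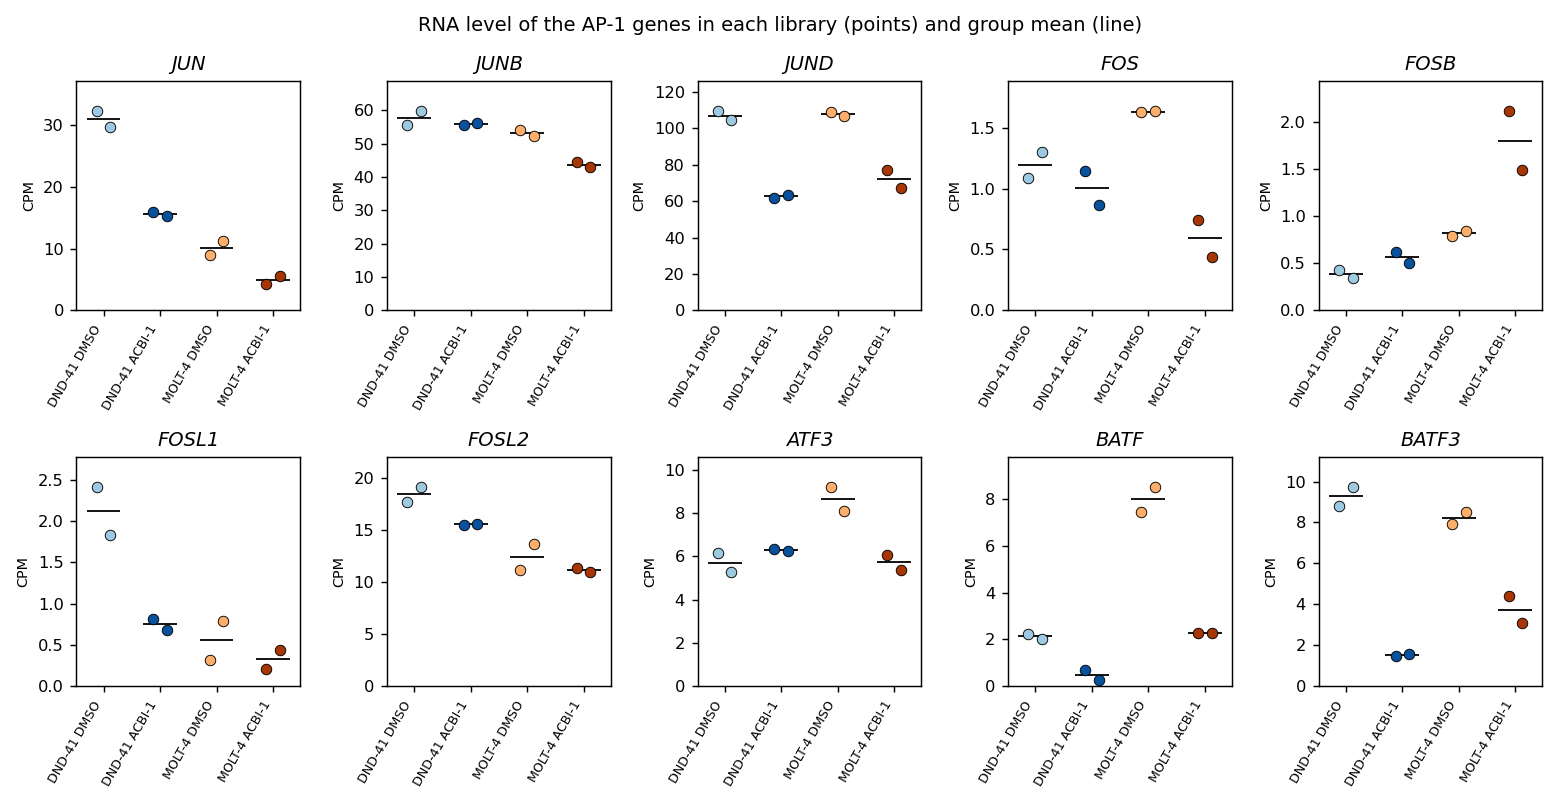
RNA level of each AP-1 gene in CPM (vertical axes, from 0, each with its own scale) in the 8 libraries. Points are libraries and lines are means of 2 libraries in each of the 4 groups on the horizontal axis. For JUN, JUND, BATF and BATF3 both ACBI-1 libraries lie below both DMSO libraries in each line. This holds for 36.2% of genes tested in DND-41 and 35.8% in MOLT-4, each line taken alone. The share for both lines at once was not counted.

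The promoters of the members that fell in both lines, or whose change differed between the lines, are shown first, since these are the genes on which the results turn. Each is the RefSeq window from 250 bases before to 50 bases after the gene's start on GRCh38.p14, read 5′ to 3′ on the gene's own strand. JUN lies at chr1:58783998-58784297 (minus strand), JUND at chr19:18281573-18281872 (minus strand), ATF3, in the first of its 2 windows, at chr1:212565157-212565456 (plus strand) and BATF at chr14:75522219-75522518 (plus strand). Capitals mark matches, on either strand, to the AP-1 site TGACTCA, the CREB/ATF site TGACGTCA, the variant TGACATCA known from the JUN promoter, and the short site TGACG, which also lies within TGACGTCA.
JUN: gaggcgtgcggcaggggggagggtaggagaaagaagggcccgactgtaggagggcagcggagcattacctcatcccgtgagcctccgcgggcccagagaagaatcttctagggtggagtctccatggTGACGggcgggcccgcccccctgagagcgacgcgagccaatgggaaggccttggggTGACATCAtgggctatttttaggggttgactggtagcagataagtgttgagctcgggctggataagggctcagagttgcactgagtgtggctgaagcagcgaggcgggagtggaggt
JUND: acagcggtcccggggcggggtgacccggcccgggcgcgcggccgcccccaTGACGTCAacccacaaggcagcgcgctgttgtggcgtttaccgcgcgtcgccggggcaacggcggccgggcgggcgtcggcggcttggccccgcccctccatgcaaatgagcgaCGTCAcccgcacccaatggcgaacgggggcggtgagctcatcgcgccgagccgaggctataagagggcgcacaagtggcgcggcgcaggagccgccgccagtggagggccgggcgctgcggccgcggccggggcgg
ATF3: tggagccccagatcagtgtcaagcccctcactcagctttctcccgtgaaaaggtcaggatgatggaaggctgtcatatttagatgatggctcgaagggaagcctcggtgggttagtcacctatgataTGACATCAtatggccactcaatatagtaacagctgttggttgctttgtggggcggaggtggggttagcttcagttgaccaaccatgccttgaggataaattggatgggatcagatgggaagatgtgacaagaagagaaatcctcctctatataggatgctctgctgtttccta
BATF: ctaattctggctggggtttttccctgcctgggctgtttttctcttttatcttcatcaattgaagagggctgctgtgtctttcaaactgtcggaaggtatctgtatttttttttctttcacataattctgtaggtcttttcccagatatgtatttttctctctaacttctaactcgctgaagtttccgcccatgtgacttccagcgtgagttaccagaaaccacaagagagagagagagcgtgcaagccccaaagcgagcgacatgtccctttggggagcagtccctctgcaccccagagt

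The JUN window held TGACATCA at base −67 from the start and TGACG at −123. In the JUND window TGACGTCA stood at −200 and TGACG, on the opposite strand, at −86. The first ATF3 window held TGACATCA at −123, and the BATF window and the second ATF3 window held none of these letters. Of 35116 promoter windows of the same length, 4.95% held TGACTCA, 1.85% TGACGTCA, 2.61% TGACATCA and 24.6% TGACG, and 1.29% held a CArG box, the site of SRF. Among all 8 members with a window TGACTCA occurred in that of FOSL2, at base 4 after the start, and none of these windows held a CArG box. TGACG, on either strand, also stood in the windows of JUNB at −137, FOS at −64, FOSB at −60 and FOSL2 at −201 and −66. The site was thus not particular to the members that fell, since FOSB rose in MOLT-4 and FOSL2 was called in neither line. Bases further than 250 before the start, and enhancers, were not searched for any of these sites. FOSL1 and BATF3 had no entry. GC content was 62% in the JUN window, 77% in JUND, 46% in BATF and 48% in the first ATF3 window, against a median of 58.7% over all windows.

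The Jun family supplies the partner that nearly every AP-1 dimer needs. JUN, the founding member and the main nuclear target of JNK, lies on chromosome 1 as a gene of a single exon. In DND-41 it stood at 32.3 and 29.7 CPM with DMSO and at 15.97 and 15.34 CPM with ACBI-1. In MOLT-4 it stood at 9.02 and 11.2 CPM with DMSO and at 4.18 and 5.50 CPM with ACBI-1. Both treated libraries were below both controls in each line, as for 36.2% of genes tested in DND-41 and 35.8% in MOLT-4, and the treated means were 50.5% and 47.8% of the control means. The log2 fold change was −0.97 ± 0.09 (SE, 2 libraries against 2; adjusted p = 4.00e-07) in DND-41 and −1.07 ± 0.16 (adjusted p = 1.20e-05) in MOLT-4. The difference between the lines was −0.08 (95% interval −0.46 to 0.30, adjusted p = 0.852).

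JUND, a Jun protein found in resting cells, is encoded on chromosome 19. It stood at 109.6 and 104 CPM in DND-41 with DMSO and at 61.7 and 63.6 CPM with ACBI-1. In MOLT-4 the values were 109.2 and 107 CPM with DMSO and 77.3 and 67.0 CPM with ACBI-1. The 4 DMSO libraries thus lay close together across the lines, and the treated libraries lay below them without overlap. Within a line, treated libraries lay below controls for 36.2% of genes tested in DND-41 and 35.8% in MOLT-4. The log2 fold change was −0.76 ± 0.06 (adjusted p = 2.03e-07) in DND-41 and −0.59 ± 0.06 (adjusted p = 3.16e-07) in MOLT-4. The difference of 0.19 between these changes did not pass the test (95% interval −0.01 to 0.39, adjusted p = 0.212).

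JUNB, which often counteracts JUN in proliferation, is a gene of a single exon on chromosome 19 and shares exonic bases with HOOK2 on the opposite strand. The strand setting of the counting is not given in the sources used here, so reads of the pair may not have been separated. JUNB stood at 55.6 and 59.8 CPM in DND-41 with DMSO and at 55.6 and 56.2 CPM with ACBI-1. In MOLT-4 it stood at 54.1 and 52.2 CPM with DMSO and at 44.5 and 42.9 CPM with ACBI-1. The groups overlapped in DND-41 and were apart in MOLT-4, with ACBI-1 lower, as for 35.8% of genes tested there. In DND-41 the log2 fold change was −0.03 (95% interval −0.17 to 0.11, adjusted p = 0.746), while in MOLT-4 JUNB fell by 0.29 ± 0.07 on the log2 scale (adjusted p = 0.00186). The difference between lines was −0.24 (95% interval −0.42 to −0.05) and missed the threshold after adjustment (adjusted p = 0.0868). With scaling by library size alone it was −0.36 (adjusted p = 0.0310), which passed it, under a scaling that moved the median difference of all genes by −0.12.

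The Fos family had far lower levels per length than the Jun family, as given below. FOS, the classic immediate early partner of JUN, had 23 and 27 counts in DND-41 with DMSO and 24 and 19 with ACBI-1. In MOLT-4 it had 31 and 33 counts with DMSO and 14 and 8 with ACBI-1, or 1.63 and 1.64 CPM against 0.740 and 0.440 CPM. The treated libraries were therefore lower in MOLT-4, with no overlap, as for 35.8% of genes tested there, and overlapped with the controls in DND-41. FOS fell by 1.46 ± 0.36 on the log2 scale in MOLT-4 (adjusted p = 0.00262), and its log2 fold change in DND-41 was −0.24 ± 0.32 (adjusted p = 0.596). The MOLT-4 call was lost without MOLT-4 ACBI-1 replicate 2, at −1.13 (adjusted p = 0.0640). Leaving out the pair of replicate 2 libraries gave −1.14 (adjusted p = 0.125), and the adjusted p in the authors' deposited table was 0.0894. The difference between the lines, −1.20 ± 0.50, did not pass the test (adjusted p = 0.128).

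FOSB, another immediate early Fos protein, was the member that rose. It had 15 and 17 counts in MOLT-4 with DMSO and 40 and 27 with ACBI-1, or 0.787 and 0.844 CPM against 2.12 and 1.49 CPM. In DND-41 the counts were 9 and 7 with DMSO and 13 and 11 with ACBI-1. The treated libraries were the higher ones in both lines, with no overlap, as for 33.4% of genes in DND-41 and 36% in MOLT-4. FOSB rose by 1.13 ± 0.34 on the log2 scale in MOLT-4 (adjusted p = 0.00935) and had a log2 fold change of 0.56 ± 0.46 in DND-41 (adjusted p = 0.353). The rise in MOLT-4 was lost with DESeq2 (1.14, adjusted p = 0.0909), without MOLT-4 ACBI-1 replicate 1 (0.86, adjusted p = 0.185) and when the pair of replicate 2 libraries was left out (1.41, adjusted p = 0.0520).

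FOSL1, or FRA1, lies on chromosome 11 and is itself a target of AP-1 in many cells. It had 51 and 38 counts in DND-41 with DMSO and 17 and 15 with ACBI-1, or 2.42 and 1.83 CPM against 0.813 and 0.685 CPM. FOSL1 fell by 1.49 ± 0.31 on the log2 scale in DND-41 (adjusted p = 0.00135), to 35.2% of the control mean. In MOLT-4 it had 6 and 16 counts with DMSO and 4 and 8 with ACBI-1, and these groups overlapped. FOSL2, or FRA2, lies on chromosome 2 and was the most abundant Fos transcript per length in each group. It stood at 17.8 and 19.2 CPM in DND-41 with DMSO and at 15.5 and 15.6 CPM with ACBI-1. In MOLT-4 it stood at 11.2 and 13.7 CPM with DMSO and at 11.4 and 10.9 CPM with ACBI-1. Its treated libraries were the lower ones in DND-41, as for 36.2% of genes tested there, and overlapped with the controls in MOLT-4. FOSL2 did not pass the test in either line, at −0.23 (95% interval −0.43 to −0.04, adjusted p = 0.0534) and −0.16 (95% interval −0.41 to 0.09, adjusted p = 0.290).

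BATF and BATF3, AP-1 proteins without a transactivation domain that pair with Jun and bind beside IRF4 and IRF8 in lymphocytes, were the members with the lowest treated level relative to control in each line, BATF3 in DND-41 and BATF in MOLT-4. BATF, on chromosome 14, stood at 2.23 and 2.03 CPM in DND-41 with DMSO and at 0.669 and 0.274 CPM with ACBI-1, the latter from 14 and 6 counts. In MOLT-4 it stood at 7.45 and 8.54 CPM with DMSO and at 2.27 and 2.26 CPM with ACBI-1. Both treated libraries were far below the controls in each line, at 22.2% and 28.3% of the control mean. Treated libraries lay below controls, by any distance, for 36.2% of genes tested in DND-41 and 35.8% in MOLT-4. BATF fell by 2.16 ± 0.37 on the log2 scale in DND-41 (adjusted p = 2.67e-04) and fell by 1.82 ± 0.17 in MOLT-4 (adjusted p = 4.87e-08). In DND-41 the value was −2.92 without DND-41 ACBI-1 replicate 1 and −1.65 without replicate 2. The difference between lines was 0.35 (95% interval −0.50 to 1.21, adjusted p = 0.659).

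BATF3, on chromosome 1, stood at 8.82 and 9.75 CPM in DND-41 with DMSO and at 1.48 and 1.55 CPM with ACBI-1. In MOLT-4 it stood at 7.92 and 8.49 CPM with DMSO and at 4.39 and 3.08 CPM with ACBI-1. Control levels did not differ beyond the threshold between the lines (MOLT-4 minus DND-41 −0.18 ± 0.14, adjusted p = 0.281), and the treated libraries were lower in DND-41 than in MOLT-4. The log2 fold change was −2.59 ± 0.18 in DND-41 (adjusted p = 3.37e-08) and −1.13 ± 0.17 in MOLT-4 (adjusted p = 1.33e-05). Treated levels were 16.3% and 45.5% of the control means.

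ATF3, a stress-induced bZIP protein that often represses as a homodimer, also lies on chromosome 1. It stood at 6.16 and 5.26 CPM in DND-41 with DMSO and at 6.36 and 6.25 CPM with ACBI-1. In MOLT-4 it stood at 9.23 and 8.09 CPM with DMSO and at 6.08 and 5.39 CPM with ACBI-1. The MOLT-4 controls were the highest libraries, and the treated MOLT-4 libraries came down to the range of DND-41. ATF3 fell by 0.60 ± 0.14 on the log2 scale in MOLT-4 (adjusted p = 0.00159), where the authors' deposited table has an adjusted p of 0.0731. Its log2 fold change in DND-41 was 0.16 ± 0.15 (adjusted p = 0.435). With the pair of MOLT-4 replicate 2 libraries left out, the MOLT-4 log2 fold changes were −1.12 for JUN, −0.51 for JUND and −0.30 for JUNB. They were −1.72 for BATF, −0.86 for BATF3 and −0.61 for ATF3. All 6 kept their direction, but with 1 library in each MOLT-4 group this is no test of replication within MOLT-4.

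**Figure D2:**
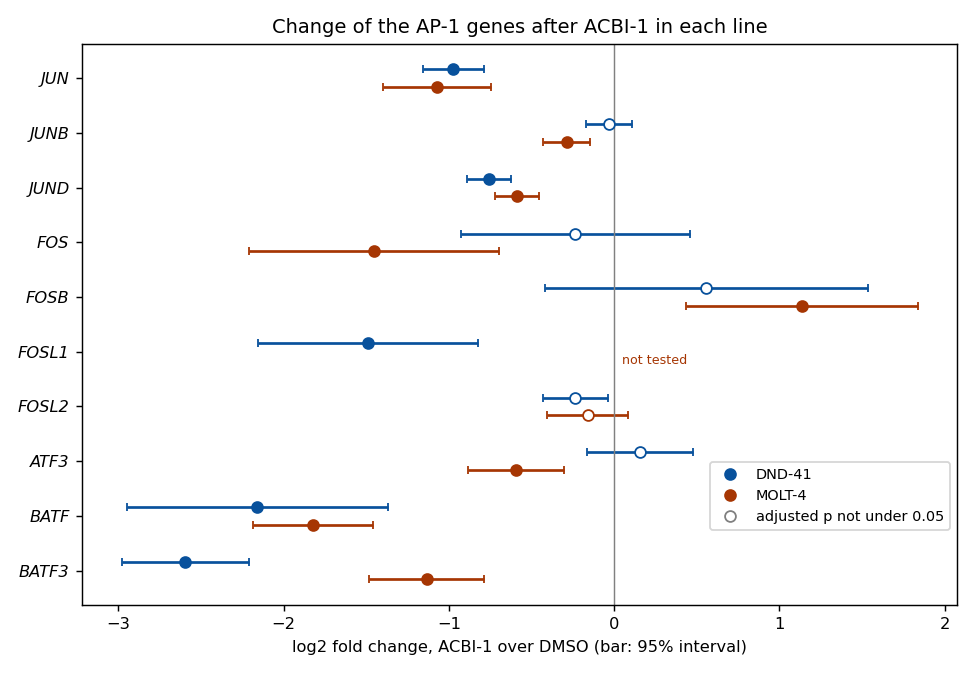
Log2 fold change of each AP-1 gene, ACBI-1 over DMSO (horizontal axis), in DND-41 and MOLT-4, with 95% intervals of the edgeR fit as bars. Filled points passed an adjusted p of 0.05; the intervals of BATF3 lie apart in the lines at −2.59 and −1.13, while those of JUN overlap.

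The change differed between the lines for BATF3 and ATF3, 2 of 10 members tested, against 13.3% of 15498 genes (7.18% with a positive and 6.17% with a negative difference). For BATF3 the log2 fold change was 1.48 ± 0.26 higher in MOLT-4 than in DND-41 (interaction of line and treatment, adjusted p = 6.77e-04). It was called under every alternative with all libraries, and the values over all alternatives lay from 1.20 to 1.73. Leaving out the pair of MOLT-4 replicate 2 libraries gave 1.73 (adjusted p = 0.00250). For ATF3 the difference was −0.73 ± 0.20 (adjusted p = 0.0195). This call was lost with DESeq2 (−0.74, adjusted p = 0.0882), and the pair of replicate 2 libraries left out gave −0.77 (adjusted p = 0.0899). It was also lost without DND-41 DMSO replicate 2 (−0.62, adjusted p = 0.0982), without MOLT-4 ACBI-1 replicate 2 (−0.65, adjusted p = 0.0876) and without MOLT-4 DMSO replicate 1 (−0.63, adjusted p = 0.0793). Over all genes, 1112 differences were positive and 956 negative. With library size alone these were 499 and 1411, and the median of all genes moved by −0.12 on the log2 scale.

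In DMSO the lines differed in 6 of the 10 members, against 63.8% of all genes, so that the share is near the background. MOLT-4 was lower in JUN (−1.61 ± 0.11, adjusted p = 2.38e-10), FOSL1 (−1.91 ± 0.39, adjusted p = 3.14e-04) and FOSL2 (−0.57 ± 0.10, adjusted p = 8.49e-05). It was higher in BATF (1.91 ± 0.20, adjusted p = 8.42e-08), ATF3 (0.60 ± 0.14, adjusted p = 9.28e-04) and FOSB (1.08 ± 0.44, adjusted p = 0.0377). FOSB was lost with DESeq2 (1.09, adjusted p = 0.130), under scaling to plain library size (0.98, adjusted p = 0.0658) and without any 1 of the 4 DMSO libraries or the 2 MOLT-4 ACBI-1 libraries, with an adjusted p from 0.0503 to 0.171. JUND differed by 0.01 ± 0.06 (adjusted p = 0.873), and by −0.09 with library size alone, a scaling that moved the median of all genes by −0.10. JUNB did not pass the test (−0.12, adjusted p = 0.105), but did with that scaling (−0.22, adjusted p = 0.0152). Leaving out the pair of MOLT-4 replicate 2 libraries put JUN at −1.77, FOSL1 at −2.72, FOSL2 at −0.71, ATF3 at 0.71 and BATF at 1.82. All kept their direction. The lines were counted in separate tables, so line and any batch of its table cannot be told apart.

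Levels of different genes were compared per kilobase of exon, as CPM per kb. In DND-41 with DMSO the order was JUND at 57.4 ± 1.98 (mean ± SD, n = 2), JUNB at 31.7 ± 1.63, JUN at 8.76 ± 0.508, BATF3 at 3.42, FOSL2 at 2.58, BATF at 2.17, ATF3 at 1.41, FOSL1 at 1.13, FOS at 0.370 and FOSB at 0.0688 CPM per kb, with no neighbours overlapping. In MOLT-4 with DMSO the order was JUND at 58.0 ± 0.919, JUNB at 29.2 ± 0.759, BATF at 8.16 ± 0.787, BATF3 at 3.02, JUN at 2.86, ATF3 at 2.14, FOSL2 at 1.73, FOS at 0.504, FOSL1 at 0.294 and FOSB at 0.147 CPM per kb, where BATF3 and JUN overlapped. JUND and JUNB led in both lines, and the third place was held by JUN in DND-41 and by BATF in MOLT-4.

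With ACBI-1 the order in DND-41 was JUND at 33.6, JUNB at 30.7, JUN at 4.42, FOSL2 at 2.18, ATF3 at 1.56, BATF3 at 0.559, BATF at 0.481, FOSL1 at 0.397, FOS at 0.311 and FOSB at 0.101 CPM per kb. BATF3 had thus moved from the fourth place to the sixth, where its values overlapped with those of BATF, and those of BATF with FOSL1. In MOLT-4 with ACBI-1 the order was JUND at 38.7, JUNB at 24.0, BATF at 2.31, FOSL2 at 1.56, ATF3 at 1.42, BATF3 at 1.38, JUN at 1.37, FOSB at 0.324, FOS at 0.182 and FOSL1 at 0.173 CPM per kb. ATF3, BATF3 and JUN overlapped there as neighbours, as did FOS and FOSL1. ATF3 ranks higher when the longest transcript is used as its length, in place 3 instead of 5 in this last group.

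**Figure D3:**
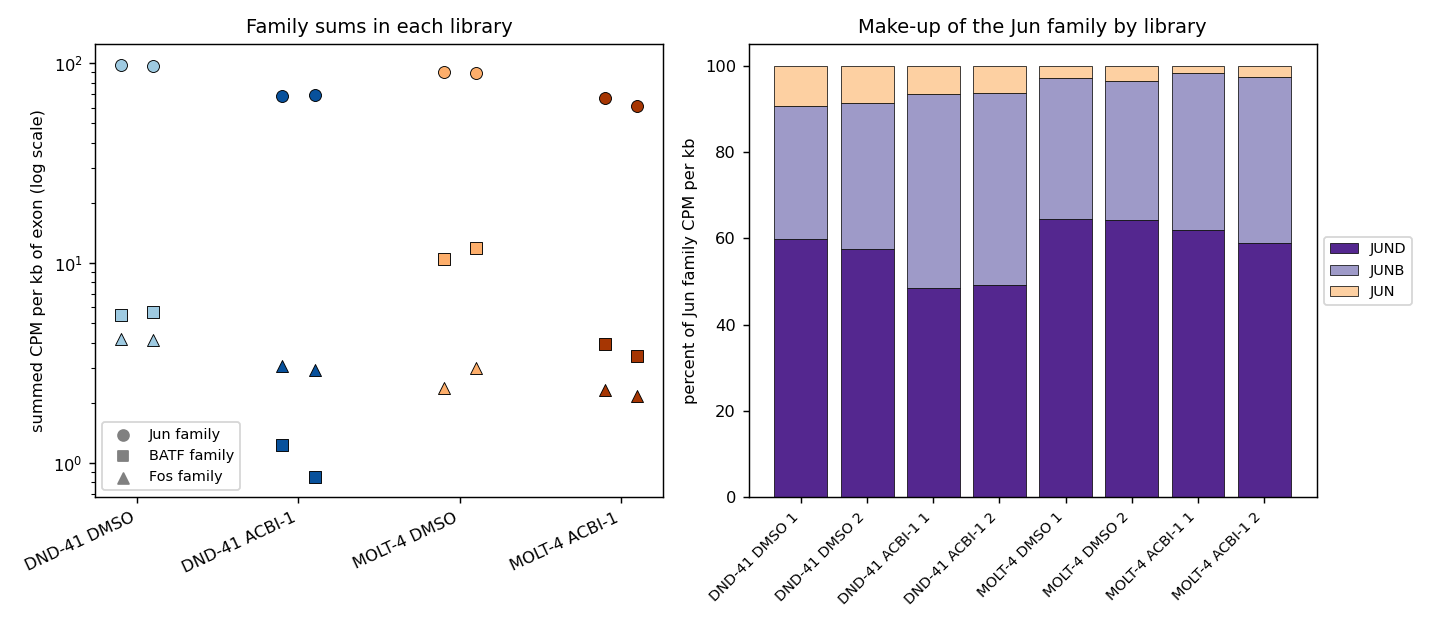
Left, summed CPM per kb of exon of the Jun family (circles), the BATF family (squares) and the Fos family (triangles) in each library, on a log axis. Right, percent of the Jun family sum held by JUND, JUNB and JUN in each library, where JUND falls from 59.8% and 57.6% to 48.6% and 49.2% in DND-41.

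The Jun family sum of JUN, JUNB and JUND was 98.5 and 97.3 CPM per kb in DND-41 with DMSO and 68.2 and 69.3 CPM per kb with ACBI-1. In MOLT-4 it was 90.9 and 89.2 CPM per kb with DMSO and 67.1 and 61.1 CPM per kb with ACBI-1. The treated sums lay below the controls in both lines, and the make-up moved with them. JUND held 59.8% and 57.6% of the sum in DND-41 with DMSO and 48.6% and 49.2% with ACBI-1, while JUNB held 31.0% and 33.8% and then 44.8% and 44.5%. In MOLT-4 the share of JUND was 64.5% and 64.3% with DMSO and 61.8% and 58.9% with ACBI-1, and that of JUNB 32.7% and 32.2% and then 36.4% and 38.6%. JUNB thus took a larger share of a smaller sum in each treated library. No test was made of sums or shares.

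The Fos family sum was 4.18 and 4.12 CPM per kb in DND-41 with DMSO and 3.07 and 2.90 CPM per kb with ACBI-1. In MOLT-4 it was 2.37 and 2.99 CPM per kb with DMSO and 2.31 and 2.17 CPM per kb with ACBI-1. These sums were apart in both lines, narrowly in MOLT-4, and FOSL2 held between 59.4% and 75.2% of them. The Jun sum was 23.6 ± 0.0281 times the Fos sum in DND-41 with DMSO and 23.1 ± 1.16 times with ACBI-1, and 34.1 ± 5.99 and 28.6 ± 0.600 times in MOLT-4. The BATF family sum of BATF and BATF3 was 5.52 and 5.66 CPM per kb in DND-41 with DMSO and 1.23 and 0.852 CPM per kb with ACBI-1. In MOLT-4 it was 10.5 and 11.8 CPM per kb with DMSO and 3.94 and 3.44 CPM per kb with ACBI-1. It was larger than the Fos sum in both DMSO groups, and remained so with ACBI-1 in MOLT-4 but not in DND-41.

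Other genes of the pathway were taken from lists that do not overlap with the members. Of the other bZIP factors and AP-1 partners, 24 were tested in DND-41, where 5 rose and 9 fell (median −0.06), and 26 in MOLT-4, where 5 rose and 13 fell (median −0.21). The shares of all genes to read these and the following counts against are 20% higher and 23.2% lower in DND-41, and 20.7% and 24.4% in MOLT-4, or 9.55% and 15.6% without both MOLT-4 replicate 2 libraries. Without that pair 2 of the 26 rose and 10 fell (median −0.15). CREB1, the cAMP-responsive activator, rose by 0.40 on the log2 scale in DND-41 and by 0.26 in MOLT-4. JDP2, a repressor that dimerises with Jun, fell by 2.86 ± 0.46 (adjusted p = 1.50e-04) in DND-41, and XBP1, a factor of the unfolded protein response, fell by 0.68 there and fell by 1.43 in MOLT-4. NFE2, a haematopoietic cap'n'collar factor, fell by 1.99 ± 0.12 in MOLT-4, while its relative NFE2L3 rose by 1.06 and ATF5, a stress-related factor, by 0.38. In DND-41 ATF5 fell by 0.29 (adjusted p = 0.00171), a call lost without DND-41 DMSO replicate 2 (−0.25, adjusted p = 0.0954).

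JDP2 lies between FOS and BATF on chromosome 14 and is a protein-coding neighbour of both. It fell by 1.66 ± 0.53 in MOLT-4 (adjusted p = 0.0155), a call lost with DESeq2 (−1.66, adjusted p = 0.106), without MOLT-4 ACBI-1 replicate 1 (−0.88, adjusted p = 0.252), without MOLT-4 DMSO replicate 2 (−1.05, adjusted p = 0.244) and when the pair of replicate 2 libraries was left out (−2.74, adjusted p = 0.0613). Taking the nearest protein-coding gene on either side of each member gave 18 distinct neighbours, of which 14 were tested in each line. In DND-41, 5 fell and the rest did not pass the test (median −0.11), and in MOLT-4, 2 rose and 4 fell (median 0.04), or 2 fell with the replicate 2 pair left out (median 0.07). The MOLT-4 counts lie near the shares of all genes. The neighbours of JUN (MYSM1 and FGGY), of JUND (IQCN and LSM4) and of the ATF3 and BATF3 pair (NENF and NSL1) did not pass the test in either line. PRDX2, beside JUNB, fell by 0.61 in DND-41 and fell by 0.74 in MOLT-4. Both neighbours of FOSL1 fell in DND-41, CCDC85B by 0.32 and C11orf68 by 0.63, and C11orf68 fell by 0.91 in MOLT-4. TMED10, beside FOS, fell by 0.23 in DND-41, and FLVCR2, beside BATF, fell by 1.48 in MOLT-4. The neighbours that rose in MOLT-4 were CD3EAP, beside FOSB, by 0.38 and BABAM2, beside FOSL2, by 0.18. Neither rise was called with the replicate 2 pair left out. The neighbours were chosen by position alone.

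Among 23 upstream kinases and activators tested in each line, 4 rose and 7 fell in DND-41 (median −0.07), and 8 rose and 5 fell in MOLT-4 (median 0.08). Leaving out the MOLT-4 replicate 2 pair, 3 rose and 3 fell there (median 0.06), and the DND-41 counts lie near the shares of all genes. RPS6KA1, the MAP kinase-activated kinase RSK1, fell by 1.29 ± 0.07 in DND-41 and fell by 0.85 ± 0.08 in MOLT-4. MAPK8, or JNK1, fell by 0.49 in DND-41, where SRF and ELK4, which drive the FOS promoter together, rose by 0.59 and 0.44. SRF and ELK4 also rose in MOLT-4, by 0.30 and 0.27. In MOLT-4, MAPK14, the p38 kinase, rose by 0.48 and MKL2, an SRF coactivator, by 0.47, while the ternary complex factor ELK3 fell by 1.46 ± 0.17. MKL2 also rose in DND-41, by 0.33. ELK3 fell there by 0.27, a call lost when some libraries were left out. Of 12 genes of AP-1 protein turnover and repression, 2 rose and 1 fell in DND-41 (median 0.00) and 1 rose and 3 fell in MOLT-4 (median −0.12), where without both replicate 2 libraries 1 fell (median −0.11). CUL4A, a ubiquitin ligase scaffold, rose by 0.37 in DND-41. ITCH, a ubiquitin ligase of Jun proteins, fell by 0.27 in MOLT-4. NCOR1 at 0.19 and MEN1 at −0.16 in DND-41, and CSNK2A1 at 0.20 and DDB1 at −0.22 in MOLT-4, were called but lost their call under at least 1 alternative. These were for NCOR1 leaving out either DND-41 DMSO library (0.16 without replicate 1 and 0.21 without replicate 2), for MEN1 the same (−0.20 and −0.13), for CSNK2A1 leaving out MOLT-4 DMSO replicate 2 (0.13) and for DDB1 leaving out both MOLT-4 replicate 2 libraries (−0.20).

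Of the NFAT and IRF partners and calcineurin subunits, 1 of 6 tested rose and 2 fell in DND-41 (median −0.07), and 2 of 8 rose and 5 fell in MOLT-4 (median −0.54), or 1 and 4 without both replicate 2 libraries (median −0.60). NFATC1, a partner of AP-1 at cytokine promoters, fell by 0.38 ± 0.07 in DND-41 and fell by 1.20 ± 0.08 in MOLT-4. NFATC2 fell by 2.32 ± 0.08 in MOLT-4, from a mean of 74.6 to 14.98 CPM, and had a sum of 2 counts in DND-41 with DMSO and 0 with ACBI-1. The calcineurin catalytic subunit genes moved apart in both lines. PPP3CA fell by 0.69 in DND-41 and fell by 1.37 in MOLT-4, while PPP3CB rose by 0.35 and 0.31. In MOLT-4 the regulatory subunit gene PPP3R1 rose by 0.38, a call lost when the pair of replicate 2 libraries was left out (0.21, adjusted p = 0.148).

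**Figure D4:**
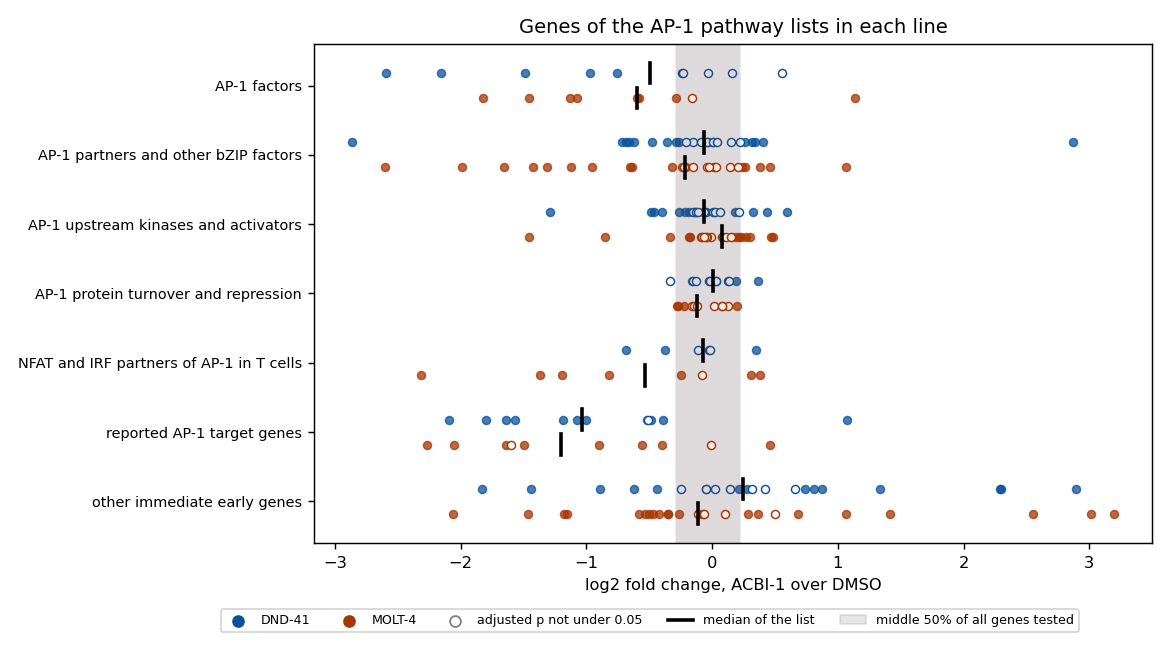
Log2 fold change, ACBI-1 over DMSO (horizontal axis), of each tested gene of the AP-1 members and of 6 related lists in DND-41 and MOLT-4. Filled points passed an adjusted p of 0.05, black bars are list medians and the grey band holds the middle 50% of all genes tested; the bars of the reported AP-1 targets lie at −1.04 and −1.20.

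Of 25 genes often reported as AP-1 targets, 12 were tested in DND-41, where 10 fell and 1 rose (median −1.04), and 10 in MOLT-4, where 7 fell and 1 rose (median −1.20). The cytokine gene TGFB1 fell by 1.57 ± 0.06 in DND-41 and fell by 2.05 ± 0.08 in MOLT-4. VIM, the intermediate filament vimentin, fell by 1.19 in DND-41 and by 0.90 in MOLT-4. CD44, the hyaluronan receptor, fell by 0.48 in DND-41 and by 1.64 ± 0.08 in MOLT-4. The early activation antigen CD69 was the gene that rose, by 1.07 ± 0.13 in DND-41 and by 0.46 ± 0.12 in MOLT-4, the latter lost without MOLT-4 DMSO replicate 2 (0.32, adjusted p = 0.0652) and when the replicate 2 pair was left out (0.32, adjusted p = 0.188). With the pair of MOLT-4 replicate 2 libraries left out, 5 of the 10 targets fell and the rest did not pass the test (median −1.16), with TGFB1 at −2.13 and CD44 at −1.65. The part of the stromal transcripts of those 2 libraries in the other calls of this list was not tested. The list was chosen with earlier results of these data known, so its counts and medians are a description and no independent support. Whether AP-1 proteins act on these genes in these lines was not measured.

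The other immediate early genes, induced by the same signals as FOS, split. In DND-41, 9 of 22 tested rose and 5 fell (median 0.25), and in MOLT-4, 8 of 25 rose and 12 fell (median −0.11). Without both MOLT-4 replicate 2 libraries 6 of 24 rose and 7 fell there (median −0.10). In DND-41, EGR1, a zinc finger factor induced by MAP kinases, rose by 2.89 ± 0.07 and BTG1, an antiproliferative gene, by 1.33, while KLF6 fell by 0.89 and the MAP kinase phosphatase DUSP2 fell by 1.44. In MOLT-4 BTG1 fell by 0.27 (adjusted p = 0.00695), a call lost with DESeq2 (−0.26, adjusted p = 0.0900), without MOLT-4 ACBI-1 replicate 2 (−0.22, adjusted p = 0.0756), without MOLT-4 DMSO replicate 2 (−0.21, adjusted p = 0.0536) and without both (−0.19, adjusted p = 0.310). In MOLT-4, TRIB1, a pseudokinase, rose by 3.20 ± 0.19 and the orphan receptor NR4A3 by 3.02 ± 0.31. KLF10 fell by 1.46 and DUSP2 fell by 1.18 there. EGR1 and KLF6 changed in MOLT-4 in the same direction as in DND-41, by 1.06 and −0.35.

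For the 3 members with the highest mean CPM, the genes of most like pattern over the 8 libraries were sought among 8511 genes by the root mean square difference of centred log2 CPM. For JUND these were C11orf84 at 0.0665, PFKL at 0.0674 and CAPN1 at 0.0722, which had log2 fold changes between −0.83 and −0.78 in DND-41 and between −0.71 and −0.49 in MOLT-4. For JUNB they were TLN1 at 0.0378, KIF5B at 0.0450 and YY1 at 0.0457. JUN had no gene as near, with GABBR1 at 0.132, LST1 at 0.158 and RFTN1 at 0.160.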

How the data were processed

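RNA was measured in 8 libraries, 2 in each of 4 groups taken from the labels. The counts deposited by the authors are raw whole numbers for each gene. Per the submitters' processing notes, STAR 2.5.2a, featureCounts and the hg19 build were used; for annotation and strand setting the sources used here give nothing. The authors' deposited comparison tables hold log2 fold changes with SEs and p-values, raw and adjusted, per the file headers. Their 2 deposited score columns are mean normalized expression and the Wald statistic. The notes name DESeq2 1.12.4. The deposited log2 signs were those of ACBI-1 over DMSO for 100% of the genes called in DND-41 and 0% in MOLT-4. By the sample labels the MOLT-4 table thus reads as DMSO over ACBI-1, but the headers do not state its direction.

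Each line was tested alone with edgeR 4.0.16 in R 4.3.3: filterByExpr at a minimum count of 10, TMM, the quasi-likelihood F test, and Benjamini-Hochberg adjustment over all genes tested, with a threshold of 0.05. The interaction and the DMSO comparison used all 8 libraries. SEs were taken from the fold change and its F statistic. CPM uses the TMM factors of the fit over all 8 libraries. Between replicates, log2 CPM correlated at 0.988 to 0.992 (Pearson, over genes), with no identical libraries. Intervals and floors of 3 counts cover counting error or library spread only. Exon lengths and neighbours came from GENCODE 29 by gene identifier, and promoter windows from RefSeq on GRCh38.p14. The steps were tested on simulated data.

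The members and lists were chosen with earlier results of these data known. Named were all members, per list and line the 2 rises and 2 falls of smallest adjusted p, where called, and 3 genes of most like pattern for the 3 members of highest mean CPM, among genes at 5 CPM or more tested in both lines, with clone, LOC, LINC, antisense and pseudogene-type names left out. A gene of the related lists that this rule would name is not reported here. Neighbours, and markers that show a library apart, were named outside this rule after their values were seen. Alternatives were scaling by size factors of the DESeq2 kind or by library size alone, no filter, a minimum count of 30, DESeq2 1.42.0 itself, a replicate block, 1 fit of all 8 libraries, the DMSO libraries alone, the longest transcript as length, and each library left out in turn, where the spread of a group left with 1 library was borrowed from the other groups. Leaving out both MOLT-4 replicate 2 libraries (fitted together with DND-41, counting genes tested in MOLT-4 alone) was chosen after seeing the data. Python 3.11.15 with pandas 2.3.3, numpy 2.4.6 and matplotlib 3.10.9 made the tables and plots.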

Additional observations from a re-analysis of the deposited data

Results flagged for a closer look

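The change after ACBI-1 differed between the lines in a test of the difference itself for BATF3 and ATF3. For BATF3 the log2 fold change in MOLT-4 minus that in DND-41 was 1.48 (edgeR interaction, adjusted p = 6.77e-04), since it was lower after treatment in all 4 treated libraries and by more in DND-41. For ATF3 the difference was −0.73 (edgeR interaction, adjusted p = 0.0195). Both treated MOLT-4 libraries were below their controls, as for 35.8% of genes tested there. Both treated DND-41 libraries were above theirs, as for 33.4% of genes, but only by 6.25 against 6.16 CPM at the nearest. The change of ATF3 in DND-41 did not pass the edgeR test (0.16, adjusted p = 0.435), so a rise there is not shown. The ATF3 call was lost in 5 of 15 alternatives, among them DESeq2 and leaving out both MOLT-4 replicate 2 libraries, with an adjusted p of up to 0.0982.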

How the results depend on the processing

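The falls of JUN, JUND, BATF and BATF3 were called in both lines under every alternative with all libraries. So were those of JUNB and ATF3 in MOLT-4 and FOSL1 in DND-41 wherever these could be tested. A group left with 1 library borrowed its spread, so calls with a library left out are no separate support. The DND-41 log2 fold changes then ranged from −1.03 to −0.92 for JUN, −0.80 to −0.73 for JUND and −2.67 to −2.52 for BATF3. In MOLT-4 they ranged from −1.28 to −0.88, −0.69 to −0.48 and −1.41 to −0.90. The number of members that rose in MOLT-4 was 0 with a minimum count of 30 (FOSB was then not tested), with DESeq2 and without both replicate 2 libraries, and 0 to 1 with 1 library left out. The number with a negative difference between lines was 2 with library size alone, 0 with DESeq2, 0 without both replicate 2 libraries and 0 to 1 with 1 library left out. Genes higher in DND-41 were 2807, against 1871 with DESeq2 and 1745 to 3044 with 1 library left out. In MOLT-4, 2948 genes were higher and 3477 lower, against 1781 and 3922 with library size alone, 1962 higher with DESeq2, and 1357 and 2232 without both replicate 2 libraries. Positive differences numbered 499 with library size alone, 440 without both replicate 2 libraries and 699 to 1207 with 1 library left out. Negative ones numbered 504 without both replicate 2 libraries and 621 to 989 with 1 left out. For these counts the cause was not tested, beyond the fewer libraries.

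Signs turned for values near 0. With library size alone ITCH in DND-41 was 0.0017, NCOR1 in MOLT-4 −0.0010, the FOSL2 difference −0.0327 and JUND in DMSO −0.0913, and without both replicate 2 libraries FOSL2 in MOLT-4 was 0.0128. With 1 library left out, the range in DND-41 was −0.0903 to 0.0202 for JUNB, −0.11 to 0.0078 for KLF10 and −0.74 to 0.17 for NFE2L3, and in MOLT-4 −0.29 to 0.00067 for FOSL2 and −0.193 to 0.0176 for MAPK8. For the difference it was −0.15 to 1.12 for BATF, −0.29 to 0.11 for JUN and −0.0373 to 0.225 for FOSL2, and for DMSO −0.0242 to 0.0459 for JUND. With the longest transcript as length, the ratio of the Jun to the Fos sum was 20.9 in DND-41 with DMSO, 20.3 with ACBI-1 and 24.6 in MOLT-4 with ACBI-1.

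Whether replicate numbers pair the samples is not settled, and the main fits held no block. Deviations of libraries with the same number correlated at 0.0828 in DND-41 and 0.318 in MOLT-4, over genes, with 2 pairs a line. Both MOLT-4 replicate 2 libraries shared the stromal transcripts, at 73.5 and 15.4 CPM against 3.99 and 0.687 CPM in replicate 1. Whether libraries of the same number shared a culture was not tested. With the replicate block 3297 genes were higher and 3579 lower in DND-41 and 3217 and 3703 in MOLT-4, and 6 members fell in DND-41, the added one being FOSL2 (−0.23, adjusted p = 0.0373). FOSB in DMSO was lost with the block (1.08, adjusted p = 0.0825). No other member's call changed with it. Depth limits FOSL1 most, with 4 counts in its lowest library.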
